A study of Mus musculus with 32 samples.

Results

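Livers of wild-type (WT) male mice of the c57bl6 strain were compared after a 24 h fast and after a 4 h fast, all on the control diet (CD) of a ketogenic diet experiment. The comparison takes 8 of the 32 libraries in the series, 4 livers at each fasting time, chosen by their labels for genotype, diet and hours without food. All 8 mice ate CD from 12 to 16 weeks of age and died at 16 weeks, and each library is polyadenylated RNA from a liver piece of a separate animal. The other 24 libraries came from WT mice on a ketogenic diet (KD) and from fatp2-/- mice (KO), which lack a fatty acid transport protein, on either diet, after the same 2 fasts. They share the estimate of spread and enter the tests of difference given at the end. The short fast is the reference throughout, since the labels give no fed group, and they give no time of day.

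When food is withheld, insulin falls while glucagon and glucocorticoids rise. The liver spends its glycogen, then makes glucose from amino acids, lactate and glycerol, and takes up fatty acids released from fat tissue. Those fatty acids are oxidised in mitochondria and peroxisomes and turned into ketone bodies, largely under the nuclear receptor PPARα, while synthesis of fatty acids and cholesterol, driven by the SREBP factors and ChREBP, is shut down.

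The 8 libraries held 14806078 to 24551081 counted reads and 17360 to 19793 genes with reads. The livers carried hepatocyte markers throughout, with a summed level of 77553 to 92795 CPM (read counts scaled to the library total after TMM normalization) after 4 h and 57158 to 86286 CPM after 24 h. Replicate 1 of the 24 h group stood apart: its summed skeletal muscle markers reached 467 CPM against 1.04 to 2.29 CPM in the other 7 livers, and 12.6% of its counts came from mitochondrially encoded genes. Ckm, the creatine kinase of muscle, was at 38.2 CPM in that liver and at 0 in the other 7. Of 13 muscle markers tested 6 passed as higher, and none did without that liver. Its Kupffer cell markers summed to 1285 CPM, against 343 to 686 CPM in the other 24 h livers and 452 to 524 CPM after 4 h. In whole liver, fewer cells of a type and less RNA per cell cannot be told apart. Results below are also given without this library where that ends a call, changes a list's count or moves a called value by over 1.5 times, and the part of RNA from muscle or Kupffer cells in the other results was not tested.

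**Figure D1:**
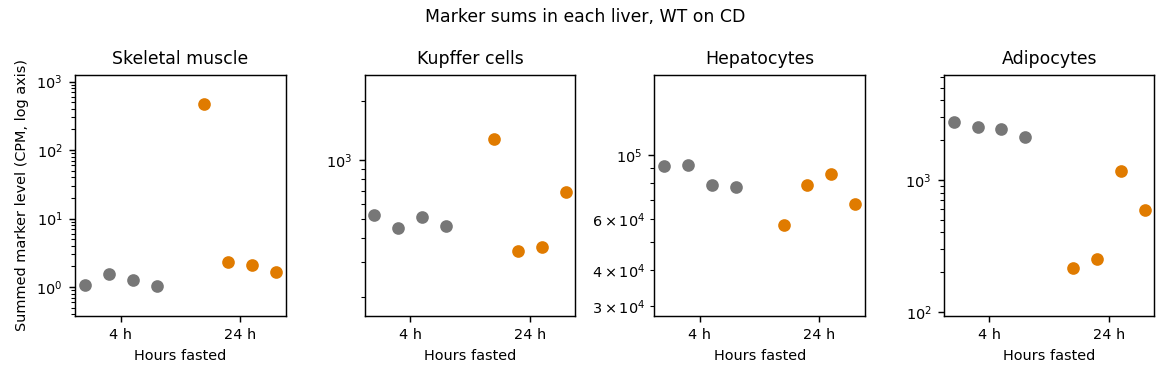
Summed level of marker genes in each of the 8 livers, in CPM on a log axis, for skeletal muscle, Kupffer cells, hepatocytes and adipocytes, with the 4 h livers in grey and the 24 h livers in orange, replicates 1 to 4 from left to right. The 24 h replicate 1 holds 467 CPM of muscle markers against at most 2.29 CPM elsewhere, and the adipocyte sum, which is mostly Car3, is below every 4 h liver in all 4 of the 24 h livers. Of the 5 adipocyte markers tested 1 rose and 2 fell (1 and 1 without the 24 h replicate 1). Their median log2 change was 1.15 (0.08 without that replicate), so the sum does not stand for the list.

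The long fast changed 2670 of the 14438 genes tested (18.5%) at an adjusted p under 0.05, 1283 higher (8.89%) and 1387 lower (9.61%). These shares are the background for the counts of every gene list below, and no list was tested against them. Each gene was tested with edgeR's quasi-likelihood test, and p-values were adjusted by the Benjamini-Hochberg method over all genes tested. Of the changed genes, 1104 moved by more than 1 on the log2 scale, 647 up and 457 down. The ranges of the 2 groups did not overlap for 2982 genes (20.7%), 2084 of which passed the test. Without the 24 h replicate 1, 1831 of 14612 genes passed (12.5%), and 1685 of the 2670 (63.1%) passed again in the same direction.

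Targets of PPARα rose after the long fast: 21 of the 25 on the list rose, none fell, and the median log2 change was 1.72 against 0.02 over all genes tested. Cyp4a14, a microsomal hydroxylase of fatty acids at their end carbon, had 61.9, 19.4, 7.06 and 31.7 CPM in the 4 h livers (replicates 1 to 4 in order, here and below) and 4633, 10508, 7905 and 6453 CPM in the 24 h livers. Every 24 h liver was far above every 4 h liver. The fitted change was 246-fold, a log2 fold change of 7.94 ± 0.57 (standard error, SE; adjusted p = 2.89e-10), and it was 8.57 on the log2 scale without the 4 h replicate 1. Cyp4a genes resemble each other, so reads may be shared among the copies.

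Acot1, a thioesterase that splits acyl-CoA into free fatty acid and CoA, had 24.3, 17.7, 7.23 and 16.5 CPM after 4 h and 243, 580.0, 474 and 237 CPM after 24 h. The groups were clear of each other, with replicates 2 and 3 the highest of the 24 h livers, and the fitted change was 23.4-fold (log2 4.55 ± 0.42, adjusted p = 1.7e-08). Its near copy Acot2 shares much of its sequence, and how the counting treated such reads is not given in the sources used here. Ehhadh, the peroxisomal bifunctional enzyme of β-oxidation, had 304, 237, 144 and 206 CPM after 4 h and 1366, 3766, 2372 and 2566 CPM after 24 h. Its groups were also separate, at 11.3-fold (log2 3.50 ± 0.38, adjusted p = 1.5e-07). Vnn1, the pantetheinase that releases cysteamine, had 26.7, 25.6, 11.9 and 16.0 CPM after 4 h and 32.3, 201, 219 and 120.3 CPM after 24 h. The 24 h replicate 1 lay close to the 4 h livers and the other 3 far above them (log2 2.84 ± 0.37, adjusted p = 2.57e-06).

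**Figure D2:**
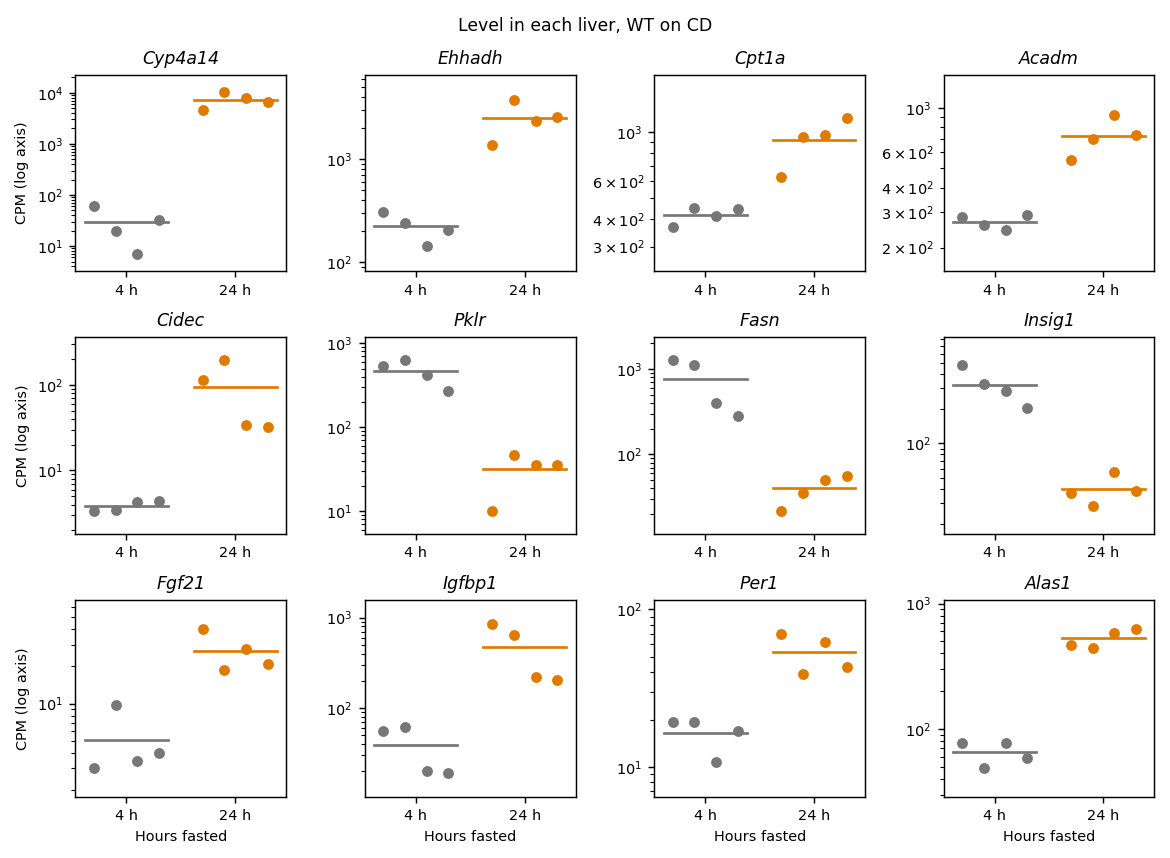
Level of 12 genes in each of the 8 livers, in CPM on a log axis, one panel a gene. Points are single livers, replicates 1 to 4 from left to right within each fasting time (grey, 4 h; orange, 24 h), and the horizontal line is the mean of the group. Levels of different genes are not per length and compare only within a panel. Cyp4a14 lies between 7.06 and 61.9 CPM after 4 h and between 4633 and 10508 CPM after 24 h.

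Uptake and storage of fatty acids moved less evenly. Among genes of fatty acid uptake and binding 6 of 16 rose and 2 fell, but the number that rose was 4 without the 24 h replicate 1 and up to 9 with another liver left out, and the median moved from 0.82 to 0.14 without that replicate. Cd36, a fatty acid receptor of the plasma membrane, had 24.2, 24.7, 24.8 and 24.4 CPM after 4 h and 189.5, 50.0, 99.2 and 44.2 CPM after 24 h. The 4 h livers were nearly level and all 24 h livers were above them, replicate 1 highest (log2 1.97 ± 0.31, adjusted p = 2.94e-05; 1.41 without replicate 1). Slc27a2, which encodes Fatp2, had 942, 1000.4, 905 and 974 CPM after 4 h and 1065, 1974, 2229 and 2224 CPM after 24 h. Its 24 h replicate 1 was only just above the highest 4 h liver, and the other 3 were well above it (log2 0.97 ± 0.19, adjusted p = 0.000373).

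Of the genes of lipid droplets and triglyceride turnover, 11 of 22 rose and 3 fell (10 and 2 without the 24 h replicate 1). Cidec, a droplet protein that promotes droplet fusion, had 3.36, 3.44, 4.28 and 4.36 CPM after 4 h and 113, 195, 33.9 and 32.2 CPM after 24 h. Replicates 1 and 2 of the 24 h group were several times higher than replicates 3 and 4, which were themselves well above all 4 h livers (log2 4.59 ± 0.52, adjusted p = 3.96e-07; 3.97 without the 24 h replicate 2). Plin5, which links droplets to mitochondria, had 38.5, 41.1, 34.7 and 37.7 CPM after 4 h and 214, 206, 127 and 127 CPM after 24 h. Pnpla2, the triglyceride lipase ATGL, had 58.8, 63.1, 60.4 and 58.2 CPM after 4 h and 193, 217, 114 and 138 CPM after 24 h. Both rose with no overlap of the groups, by 2.15 ± 0.33 and 1.46 ± 0.27 on the log2 scale (adjusted p = 2.83e-05 and 0.000238).

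Genes of fatty acid oxidation rose in the majority. In mitochondria 13 of 18 genes rose and none fell, and in peroxisomes 13 of 19 rose and 1 fell (14 and 0 without the 24 h replicate 1). Several of these genes are also on the PPARα list, so the counts overlap. Cpt1a, the carnitine palmitoyltransferase that commits fatty acids to mitochondrial entry, had 368, 451, 413 and 446 CPM after 4 h and 625, 950.4, 968 and 1157 CPM after 24 h. Slc25a20, which carries acylcarnitine across the inner membrane, had 100.5, 101, 76.6 and 89.1 CPM after 4 h and 187, 228, 227 and 219.5 CPM after 24 h. Acadm, the medium-chain acyl-CoA dehydrogenase, had 284, 260.5, 245 and 292 CPM after 4 h and 549, 699, 919 and 730.5 CPM after 24 h. In each of the 3 genes every 24 h liver was above every 4 h liver, and the 24 h replicate 1 was the lowest of its group. The changes were 1.14 ± 0.25, 1.23 ± 0.13 and 1.42 ± 0.15 on the log2 scale (adjusted p = 0.00142, 6.59e-08 and 1.26e-07).

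Increases were also seen in Slc22a5, Crat and Apoa4. Slc22a5, the plasma membrane carnitine transporter, had 17.0, 21.9, 19.6 and 22.2 CPM after 4 h and 65.9, 79.3, 87.3 and 76.5 CPM after 24 h, 2 narrow groups far apart (log2 1.93 ± 0.19, adjusted p = 4.73e-08). Crat, carnitine acetyltransferase, had 41.0, 53.7, 23.1 and 36.4 CPM after 4 h and 122, 170.2, 201 and 158 CPM after 24 h, also with no overlap (log2 2.08 ± 0.28, adjusted p = 5.18e-06). Apoa4, an apolipoprotein of secreted particles, had 308, 293, 151 and 117 CPM after 4 h and 2229, 2187, 1153 and 1009 CPM after 24 h. Replicates 1 and 2 were above 3 and 4 at both fasting times, and every 24 h liver was above every 4 h liver (log2 2.92 ± 0.47, adjusted p = 5.28e-05).

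Genes of ketone bodies rose more often than they fell. On the list of 9 genes of ketone body synthesis, transport and use, 6 rose and 2 fell (5 and 2 without the 24 h replicate 1). Bdh1, which turns acetoacetate into β-hydroxybutyrate, had 286, 287, 246 and 236 CPM after 4 h and 109.8, 192, 399 and 315 CPM after 24 h. Its 24 h livers lay on both sides of the 4 h range, and the test was not passed (log2 -0.06 ± 0.27, adjusted p = 0.914). None of the 25 genes of oxidative phosphorylation passed edgeR's test, 4 had an unadjusted p under 0.05, DESeq2 called 1, and 3 rose without the 24 h replicate 4.

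The share of counts from mitochondrially encoded genes was 6.01% ± 0.403 (SD, n = 4) after 4 h and 8.11% ± 3.32 (SD, n = 4) after 24 h. The 4 h livers had 6.59, 5.71, 5.98 and 5.77%, and the 24 h livers had 12.6, 8.54, 6.11 and 5.19%. Replicates 1 and 2 were high and the other 2 lay near the 4 h livers, and the difference was within the spread (two-sided exact permutation test, p = 0.343, smallest possible p 0.0286).

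Glucose production changed in part of its genes. Of 17 genes 7 rose and none fell, with 4 rising when the 24 h replicate 1 or the 4 h replicate 4 was left out. Aqp7 and Aqp3 are among the 7, with no reads in any 4 h liver and means of only 0.482 and 0.316 CPM after 24 h. A count of 3 reads corresponds to 0.112 to 0.222 CPM, so their part of the count is a description only. Gyk, the glycerol kinase that feeds glycerol into the pathway, had 106, 121, 108 and 120.5 CPM after 4 h and 323, 284, 387 and 310.2 CPM after 24 h, higher in every 24 h liver (log2 1.52 ± 0.19, adjusted p = 1.18e-06). Gpt2, the mitochondrial alanine aminotransferase, had 338, 345, 368 and 379 CPM after 4 h and 1116, 1137, 714 and 773 CPM after 24 h, with replicates 1 and 2 highest and no overlap (log2 1.39 ± 0.19, adjusted p = 5.71e-06). The classical control enzymes did not pass. Pck1, which makes phosphoenolpyruvate, had 1883, 2379, 1602 and 2344 CPM after 4 h and 2429.8, 3945, 5079 and 4301 CPM after 24 h. All 24 h livers were above all 4 h livers, yet the log2 difference of 0.94 ± 0.39 had an adjusted p of 0.0948, against 0.0323 when only the 8 libraries were fitted and 0.02 without the 4 libraries of the series that hold muscle transcripts. G6pc, which releases free glucose, had 819, 684, 246 and 230.4 CPM after 4 h and 385, 526, 439.5 and 512 CPM after 24 h. The 4 h livers fell into a high and a low pair on either side of the 24 h livers (log2 -0.09 ± 0.43, adjusted p = 0.914).

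Amino acid breakdown and the urea cycle showed single large increases within lists that mostly did not pass. Of 35 genes of amino acid breakdown 7 rose and 3 fell (7 and 2 without the 24 h replicate 1), and of 12 urea cycle genes 3 rose and 2 fell (2 and 1 without the 4 h replicate 1 or 3, 3 and 1 without the 24 h replicate 1). Aass, the first enzyme of lysine breakdown, had 286, 266, 269.6 and 319 CPM after 4 h and 1113, 1325, 573 and 692 CPM after 24 h. Asl, argininosuccinate lyase of the urea cycle, had 387, 347, 359 and 409.6 CPM after 4 h and 1494, 1579, 795 and 1009 CPM after 24 h. Both were separate between groups, with the 24 h replicates 1 and 2 above 3 and 4, and rose by 1.70 ± 0.30 and 1.70 ± 0.28 on the log2 scale (adjusted p = 0.000175 and 6.69e-05). Cth, the cystathionine γ-lyase that makes cysteine, had 336, 284, 299 and 357 CPM after 4 h and 1395, 872, 654 and 855 CPM after 24 h, with replicate 1 highest and no overlap (log2 1.57 ± 0.24, adjusted p = 2.47e-05). Otc, the ornithine transcarbamylase of the urea cycle, had 409.9, 426, 460.0 and 449 CPM after 4 h and 269.9, 277, 346 and 284 CPM after 24 h, a small decrease in every liver (log2 -0.57 ± 0.14, adjusted p = 0.00459).

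Genes of glycolysis and glycogen fell more often than they rose. Of 18 glycolytic genes 8 fell and 3 rose (7 and 3 without the 24 h replicate 1), and of 14 glycogen genes 5 fell and none rose (3 without the 24 h replicate 1 or the 4 h replicate 1). Pklr, the liver pyruvate kinase, had 530.1, 638, 416 and 269.9 CPM after 4 h and 9.99, 46.7, 35.8 and 35.8 CPM after 24 h, 14.5-fold lower with no overlap (log2 -3.86 ± 0.52, adjusted p = 4.07e-06). Gbe1, the glycogen branching enzyme, had 155, 167, 152 and 112 CPM after 4 h and 36.8, 52.2, 51.9 and 50.3 CPM after 24 h, again with no overlap (log2 -1.62 ± 0.16, adjusted p = 5.62e-08). Khk, the ketohexokinase that starts fructose use, had 823, 927, 643 and 595 CPM after 4 h and 137, 249.8, 257 and 254 CPM after 24 h (log2 -1.73 ± 0.19, adjusted p = 2.73e-07). Slc2a2, the hepatocyte glucose transporter GLUT2, had 303, 288, 278 and 228 CPM after 4 h and 48.7, 84.5, 195 and 175 CPM after 24 h (log2 -1.12 ± 0.30, adjusted p = 0.00718, or 0.0777 from the 8 libraries alone). The groups of both were separate, and the 24 h replicate 1 was the lowest.

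Genes of fatty acid synthesis fell: 18 of the 23 lipogenic genes fell (16 without the 24 h replicate 1), none rose, and the median log2 change was -1.93. Srebf1, which encodes the transcription factor SREBP-1, had 383, 224, 294 and 323 CPM after 4 h and 27.1, 13.9, 31.0 and 34.9 CPM after 24 h. The groups were far apart, at 11.5-fold lower (log2 -3.52 ± 0.37, adjusted p = 1.26e-07). Fasn, fatty acid synthase, had 1275, 1126, 395 and 283 CPM after 4 h and 21.6, 35.2, 50.3 and 55.4 CPM after 24 h. The 4 h replicates 1 and 2 were about 3 times as high as replicates 3 and 4, and all were above the 24 h livers (log2 -4.25 ± 0.58, adjusted p = 5.19e-06). Thrsp, a nuclear protein of lipogenic tissues, had 432, 286, 179.5 and 84.7 CPM after 4 h and 8.79, 20.4, 10.6 and 14.9 CPM after 24 h (log2 -4.17 ± 0.65, adjusted p = 3.01e-05), without overlap.

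The spread among the 4 h livers was large in this list. Pnpla3, a droplet lipase and acyltransferase, had 47.1, 28.2, 6.84 and 3.07 CPM after 4 h and 0.898, 0.664, 0.34 and 0.222 CPM after 24 h, so the 4 h livers alone ranged over more than a factor of 10. Its log2 change was -5.21 ± 0.88 (adjusted p = 8.6e-05) and -4.48 without the 4 h replicate 1. Its relative Pnpla5 was at 0 in all 24 h livers and at 5.83, 8.21, 2.83 and 0.675 CPM after 4 h, which is at least 23.1-fold lower when the mean 4 h level is set against 3 counts per library. Scd1, the desaturase that makes oleate, had 17509, 27035, 10069.7 and 7989 CPM after 4 h and 1109, 3761, 6705 and 4865 CPM after 24 h. No 24 h liver reached the lowest 4 h liver, but the log2 difference of -1.93 ± 0.93 did not pass (adjusted p = 0.148, or 0.0466 from the 8 libraries alone).

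Genes of cholesterol synthesis also fell, with 20 of 25 genes lower (18 without the 24 h replicate 1), none higher and a median log2 change of -1.64. Insig1, a sterol sensor that holds SREBPs in the endoplasmic reticulum and is itself an SREBP target, had 483, 327, 282 and 204 CPM after 4 h and 37.0, 28.3, 56.8 and 38.9 CPM after 24 h. Every 24 h liver was far below the 4 h range (log2 -3.01 ± 0.44, adjusted p = 1.27e-05). Fdps, farnesyl diphosphate synthase, had 213, 266, 182 and 95.8 CPM after 4 h and 7.93, 24.4, 14.2 and 12.3 CPM after 24 h. Its groups were separate as well (log2 -3.69 ± 0.62, adjusted p = 7.8e-05).

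Bile acid genes moved both ways, 3 of 17 higher and 4 lower. The counts were 5 and 2 without the 24 h replicate 1, and 2 and 2 without the 4 h replicate 1, 2 or 4. Cyp7a1, which catalyses the first step from cholesterol to bile acids, had 8.11, 6.88, 28.5 and 46.7 CPM after 4 h and 93.4, 155, 85.0 and 256 CPM after 24 h. The 4 h replicates 1 and 2 were well below 3 and 4, and all 24 h livers were higher still (log2 2.71 ± 0.60, adjusted p = 0.00183; 3.36 without the 4 h replicate 4). Abcb11, the bile salt export pump, had 640.2, 781, 665 and 622 CPM after 4 h and 132, 175, 345 and 293 CPM after 24 h, lower in every liver (log2 -1.52 ± 0.21, adjusted p = 5.15e-06).

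**Figure D3:**
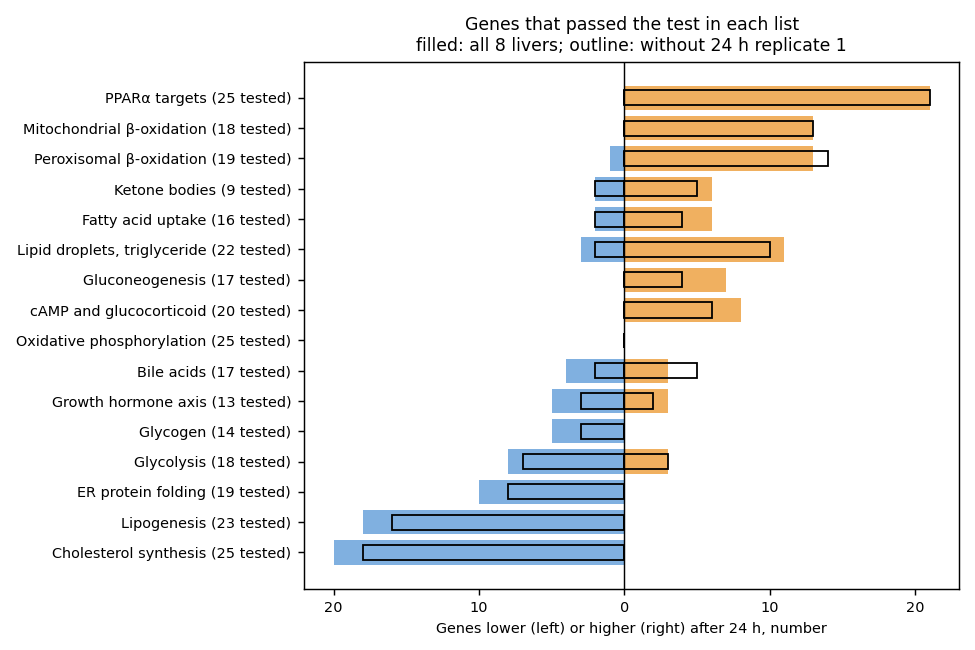
Number of genes of each list that passed the test as higher (right of 0, orange) or lower (left of 0, blue) after 24 h, for 16 lists. Filled bars are all 8 livers and open outlines leave out the 24 h replicate 1. Lipogenesis shows 18 lower of 23 and cholesterol synthesis 20 lower of 25, and PPARα targets 21 higher of 25, whereas the oxidative phosphorylation list has no gene on either side with all 8 livers.

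Secreted signals were among the clear changes. On the list of fasting hormones and their receptors 7 of 23 rose and 3 fell (6 and 3 without the 24 h replicate 1). Fgf21, a hormone the fasting liver sends to fat tissue and brain, had 3.04, 9.72, 3.45 and 3.99 CPM after 4 h and 40.1, 18.7, 27.5 and 21.0 CPM after 24 h. All 24 h livers were above all 4 h livers, replicate 1 highest (log2 2.41 ± 0.44, adjusted p = 0.000229). Angptl8, an inhibitor of lipoprotein lipase made after feeding, had 56.7, 33.6, 41.9 and 58.9 CPM after 4 h and 18.5, 4.28, 19.6 and 13.4 CPM after 24 h. It moved the opposite way with no overlap (log2 -1.77 ± 0.38, adjusted p = 0.00142).

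Igfbp1, a binding protein of insulin-like growth factors that insulin represses, had 56.2, 62.3, 20 and 19.1 CPM after 4 h and 859, 634, 219 and 202 CPM after 24 h. Each group held a high pair, replicates 1 and 2, and a low pair, replicates 3 and 4, and the lowest 24 h liver was still above the highest 4 h liver (log2 3.60 ± 0.74, adjusted p = 0.000808). Lepr, the leptin receptor, had 7.35, 19.3, 3.95 and 5.46 CPM after 4 h and 97.7, 152, 11.7 and 10.1 CPM after 24 h. Its increase came mainly from replicates 1 and 2, while 3 and 4 lay within the 4 h range (log2 2.92 ± 0.60, adjusted p = 0.000808, or 0.0591 from the 8 libraries alone; 2.18 without the 24 h replicate 2 and 3.61 without the 4 h replicate 2). Serpina12, the insulin-sensitising vaspin, had 201, 268, 252 and 202 CPM after 4 h and 1.83, 35.5, 51.2 and 36.4 CPM after 24 h, lower in all and lowest in replicate 1 (log2 -2.89 ± 0.54, adjusted p = 0.000303).

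Targets of cAMP and glucocorticoids rose in 8 of 20 genes and fell in none, and 6 to 10 rose with single livers left out (6 without the 24 h replicate 1). Per1, a clock repressor that glucocorticoids induce, had 19.4, 19.2, 10.7 and 16.9 CPM after 4 h and 69.6, 39.2, 62.3 and 43.1 CPM after 24 h. Cebpd, a C/EBP transcription factor of stress responses, had 5.95, 5.43, 5.17 and 5.09 CPM after 4 h and 34.5, 28.8, 18.5 and 12.8 CPM after 24 h. Fkbp5, a chaperone partner and textbook target of the glucocorticoid receptor, had 16.6, 17.9, 19.8 and 38.0 CPM after 4 h and 138, 226, 106 and 50.4 CPM after 24 h. None of the 3 overlapped between groups, although the 4 h replicate 4 and the 24 h replicate 4 of Fkbp5 came close, and the changes were 1.70 ± 0.29, 2.13 ± 0.32 and 2.49 ± 0.54 on the log2 scale (adjusted p = 0.000115, 1.94e-05 and 0.00132). Mt1, a metal-binding metallothionein, had 9.12, 8.09, 10.1 and 20.5 CPM after 4 h and 1528, 527, 234 and 425 CPM after 24 h. The 24 h replicate 1 was the highest, and the log2 change of 5.83 ± 1.04 (adjusted p = 0.000178) was 5.06 without it. Tat, tyrosine aminotransferase of the same list, had 1437, 1446, 784 and 1219.6 CPM after 4 h and 2294, 2763, 1522 and 1231 CPM after 24 h, overlapping, and did not pass (log2 0.68 ± 0.47, adjusted p = 0.331).

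The start regions of 4 of these genes are shown because their levels changed clearly, Fgf21 and Per1 upward and Angptl8 and Insig1 downward, and because they hold words known to bind the factors of these pathways. Each is 300 bases of the RefSeq sequence in build GRCm38.p6, from 250 bases before the annotated start, 5′ to 3′ on the gene's strand. Capitals mark an exact match, on either strand, to the composite element of ATF4 and C/EBP (TTGCATCA) in Fgf21 and Angptl8, and to the E-box (CACGTG) that clock and SREBP-related factors can bind in Per1 and Insig1. The Fgf21 window also holds the E-box letters, left in lower case. Fgf21 lies at chr7:45615441-45615740 on the minus strand and Angptl8 at chr9:21835260-21835559 on the plus strand. Per1 lies at chr11:69098699-69098998 and Insig1 at chr5:28071162-28071461, both on the plus strand.
Fgf21: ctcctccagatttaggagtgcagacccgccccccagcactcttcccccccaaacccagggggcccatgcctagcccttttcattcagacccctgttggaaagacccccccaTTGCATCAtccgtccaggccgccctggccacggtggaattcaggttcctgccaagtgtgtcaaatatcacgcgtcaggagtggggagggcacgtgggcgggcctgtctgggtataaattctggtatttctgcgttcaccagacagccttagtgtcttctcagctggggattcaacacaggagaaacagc
Angptl8: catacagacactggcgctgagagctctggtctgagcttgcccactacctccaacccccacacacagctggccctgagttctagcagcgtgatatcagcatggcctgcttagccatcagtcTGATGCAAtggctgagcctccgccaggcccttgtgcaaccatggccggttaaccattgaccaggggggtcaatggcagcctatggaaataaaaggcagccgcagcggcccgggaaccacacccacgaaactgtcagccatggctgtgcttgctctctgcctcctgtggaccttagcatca
Per1: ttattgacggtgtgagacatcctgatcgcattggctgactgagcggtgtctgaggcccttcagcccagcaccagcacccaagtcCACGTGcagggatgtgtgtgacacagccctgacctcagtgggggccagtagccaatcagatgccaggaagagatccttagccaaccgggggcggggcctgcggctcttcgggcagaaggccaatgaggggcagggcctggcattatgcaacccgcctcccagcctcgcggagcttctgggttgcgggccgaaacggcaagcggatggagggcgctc
Insig1: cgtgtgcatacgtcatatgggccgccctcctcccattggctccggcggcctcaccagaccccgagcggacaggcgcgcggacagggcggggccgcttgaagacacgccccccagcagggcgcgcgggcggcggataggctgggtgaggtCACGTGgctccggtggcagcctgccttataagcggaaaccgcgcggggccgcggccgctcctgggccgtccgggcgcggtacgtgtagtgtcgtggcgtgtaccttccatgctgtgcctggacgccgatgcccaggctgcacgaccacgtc
The composite element began 139 bases before the start in Fgf21, which rose, and 130 bases before it in Angptl8, which fell. In Per1 the E-box lay 166 bases before the start, in 1 of its 2 annotated windows, and in Insig1 101 bases before it. The composite element was in at least 1 window of 1.46% of the genes that rose, 0.863% of those that fell and 0.832% of all 10342 tested genes with a window. The E-box was in 12.8, 12.2 and 11.4% of them, and the cAMP response element (TGACGTCA) in 3.48, 2.59 and 3.41%. The shares were not tested against each other, and a match is a run of letters, not a measured binding site.

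Genes of the growth hormone axis and of sex-biased expression changed in part. Of 13 genes of the growth hormone axis 5 fell and 3 rose, and 1 to 2 rose and 3 fell without the 4 h replicate 2 or 4 or the 24 h replicate 1 or 2. Of 20 male-biased genes 7 fell and none rose (4 without the 4 h replicate 2 or 4, 5 without the 24 h replicate 1), and of the 9 female-biased genes with enough counts 7 rose and none fell (6 rose without the 24 h replicate 1). The remaining genes of the 18 on the female-biased list were not tested because their counts were too low. The filter used all 32 libraries, so a gene near 0 in most livers enters only through a group where it is higher. That group can be the 24 h livers compared here. The female-biased counts are therefore a description only. Ghr, the growth hormone receptor, had 748, 694, 764 and 648 CPM after 4 h and 219, 269.7, 463 and 461 CPM after 24 h, lower in all livers (log2 -1.02 ± 0.21, adjusted p = 0.000734). Igf1, the main product of growth hormone action in liver, had 677, 534, 590.1 and 606 CPM after 4 h and 625, 1023, 594 and 666 CPM after 24 h, overlapping apart from the 24 h replicate 2, and did not pass (log2 0.27 ± 0.16, adjusted p = 0.231). Hsd3b5, a male-biased steroid enzyme, had 344, 368, 466 and 403 CPM after 4 h and 0.636, 20.1, 90.1 and 79.2 CPM after 24 h, with replicate 1 near 0 (log2 -3.06 ± 0.66, adjusted p = 0.00141, or 0.066 from the 8 libraries alone). Cyp17a1, a steroid hydroxylase, had 15.6, 11.4, 11.8 and 12.9 CPM after 4 h and 316, 334, 91.1 and 88.9 CPM after 24 h. All 24 h livers were higher, replicates 1 and 2 most (log2 4.01 ± 0.73, adjusted p = 0.000207).

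Sult1e1, the estrogen sulfotransferase, had 0.0633, 0.242, 0.5 and 0.307 CPM after 4 h and 60.5, 48.8, 1.63 and 2.52 CPM after 24 h. The 4 h livers held few reads, since 3 reads correspond to 0.112 to 0.222 CPM in these libraries, and replicates 1 and 2 of the 24 h group exceeded 3 and 4 by more than 10 times (log2 6.62 ± 1.01, adjusted p = 2.43e-05; 5.93 without the 24 h replicate 1). Cdkn1a, the cell cycle inhibitor p21, had 9.5, 9.66, 2.78 and 12.7 CPM after 4 h and 129, 91.1, 25.4 and 18.2 CPM after 24 h with the same pair highest and no overlap (log2 2.93 ± 0.75, adjusted p = 0.00601). Of the 22 cell cycle genes 1 rose and 3 fell (1 and 4 without the 24 h replicate 1). That is near the 18.5% that passed over all genes tested.

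Genes of protein folding in the endoplasmic reticulum fell in 10 of 19 cases and rose in none (8 to 11 lower with single livers left out, 8 without the 24 h replicate 1). Pdia6, a disulfide isomerase, had 385, 319, 325 and 441 CPM after 4 h and 32.6, 96.8, 123 and 82.4 CPM after 24 h. Sdf2l1, a cofactor of the chaperone BiP, had 56.2, 34.5, 31.6 and 59.6 CPM after 4 h and 3.29, 12.6, 8.09 and 5.18 CPM after 24 h. Both were lower in every liver, lowest in replicate 1, with log2 changes of -2.14 ± 0.29 and -2.66 ± 0.38 (adjusted p = 4.07e-06 and 9.01e-06). Derl3, which draws misfolded proteins out for breakdown, had 6.46, 1.45, 7.67 and 21.7 CPM after 4 h and 0.337, 0.443, 0.68 and 0.666 CPM after 24 h (log2 -4.16 ± 0.68, adjusted p = 5.39e-05; -3.29 without the 4 h replicate 4). Hspa5, BiP itself, had 909, 634, 525 and 643 CPM after 4 h and 136, 729, 618 and 473 CPM after 24 h. Only replicate 1 was far below the 4 h livers, and the test was not passed (log2 -0.47 ± 0.33, adjusted p = 0.344).

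Targets of ATF4, the factor of amino acid shortage, mostly did not pass: 4 of 23 rose and 1 fell, with 3 higher and 4 lower without the 24 h replicate 1, and 7 or 8 higher and 1 lower without the 24 h replicate 3 or 4. With all 8 livers this is near the 18.5% that passed over all genes tested. Asns, asparagine synthetase, had 0.38, 1.27, 1.28 and 1.35 CPM after 4 h and 12.4, 9.0, 1.7 and 23.0 CPM after 24 h, with replicate 3 barely above the 4 h range (log2 3.42 ± 0.54, adjusted p = 4.35e-05). Cars, the cysteinyl-tRNA synthetase, had 34.7, 36.2, 34.8 and 33.5 CPM after 4 h and 12.5, 11.1, 16.5 and 15.4 CPM after 24 h, a tight decrease in all livers (log2 -1.33 ± 0.15, adjusted p = 4.46e-07).

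Of 18 genes of xenobiotic metabolism 5 rose and 4 fell (6 and 4 without the 24 h replicate 1). Of 14 genes of iron and heme 3 rose and 2 fell, and 2 rose and 1 fell when the 4 h replicate 2, 3 or 4 or the 24 h replicate 1 or 4 was left out. Alas1, the rate-limiting enzyme of heme synthesis, had 77.8, 49.3, 77.5 and 59.2 CPM after 4 h and 469, 441, 581 and 625 CPM after 24 h, 8.02-fold higher (log2 3.00 ± 0.38, adjusted p = 1.5e-06). Por, the electron donor of microsomal P450 enzymes, had 80.8, 77.1, 107 and 126 CPM after 4 h and 513, 769.7, 579 and 548 CPM after 24 h (log2 2.62 ± 0.34, adjusted p = 2.99e-06). Cyp2c70, which makes muricholic acids in mice, had 521, 451, 546 and 568 CPM after 4 h and 26.2, 31.5, 46.3 and 37.4 CPM after 24 h (log2 -3.88 ± 0.32, adjusted p = 2.99e-09). None of the 3 overlapped between groups, and the livers within a group lay close together. Nr1i3, the xenobiotic receptor CAR, had 36.4, 48.5, 49.6 and 67.2 CPM after 4 h and 78.3, 125, 248 and 179.8 CPM after 24 h, higher in every liver and least in replicate 1 (log2 1.64 ± 0.28, adjusted p = 0.000108). Cyp1a2, a P450 of the perivenous zone, had 445, 397, 540.4 and 413 CPM after 4 h and 24.8, 98.2, 194 and 166 CPM after 24 h, lower in every liver and lowest in replicate 1 (log2 -1.89 ± 0.37, adjusted p = 0.000471).

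Among autophagy and lysosome genes 4 of 22 rose and 1 fell (0 to 2 fell with single livers left out, 0 without the 24 h replicate 1). Bnip3, a mitophagy receptor, had 139, 130.3, 149 and 122 CPM after 4 h and 536, 693, 335 and 293 CPM after 24 h, higher in all livers (log2 1.78 ± 0.24, adjusted p = 3.7e-06). Map1lc3b, the autophagosome protein LC3B, had 112, 118, 107 and 118 CPM after 4 h and 229, 217, 159.7 and 157 CPM after 24 h, a smaller but separate increase (log2 0.74 ± 0.14, adjusted p = 0.000385). Of 14 heat shock genes 1 rose, and 4 rose without the 24 h replicate 1 and 2 without the 24 h replicate 3 or 4. Hspa8, the constitutive chaperone Hsc70, had 726, 725, 620.4 and 652 CPM after 4 h and 783, 2032, 1375 and 1246 CPM after 24 h, with replicate 1 just above the 4 h livers (log2 1.00 ± 0.26, adjusted p = 0.00629). Core clock genes rose in 3 of 19 and fell in 1 (2 and 1 without the 24 h replicate 1). Over all genes tested 18.5% passed. The clock and autophagy counts are near that share and are not read as a response of either list. Acute phase genes fell in 5 of 20 and rose in 1, with 2 to 6 lower and 1 to 4 higher when single livers were left out (2 and 3 without the 24 h replicate 1). NRF2 targets, the antioxidant genes, rose in 5 of 13 and fell in 5, and without the 24 h replicate 1 1 rose and 4 fell. The interferon-stimulated list had 1 of 21 lower with all livers and 0, 2 or 4 with single livers left out (4 without the 24 h replicate 3, 2 without the 4 h replicate 2, 0 without the 24 h replicate 1), and ribosome biogenesis had 6 of 20 higher, or 3 without the 4 h replicate 1 or 3 or the 24 h replicate 1 or 2.

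Large decreases also lay outside these metabolic lists. Chrna4, a subunit of the nicotinic acetylcholine receptor, had 33.6, 35.3, 8.23 and 2.33 CPM after 4 h and 0.15, 0, 0.272 and 0 CPM after 24 h. The 4 h livers ranged widely, and the 24 h livers were at 0 or within a few reads of it (log2 -7.34 ± 1.01, adjusted p = 5.19e-06; -7.95 without the 24 h replicate 3). Hcn3, a pacemaker channel subunit, had 53.6, 55.1, 40.6 and 23.3 CPM after 4 h and 0.412, 1.03, 1.29 and 0.74 CPM after 24 h (log2 -5.70 ± 0.89, adjusted p = 3.36e-05). Mup-ps20, listed as a pseudogene of the major urinary proteins, had 33.8, 93.0, 76.0 and 30.1 CPM after 4 h and 0.0374, 0.295, 0.272 and 1.18 CPM after 24 h (log2 -7.19 ± 0.59, adjusted p = 8.05e-09; -8.34 without the 24 h replicate 4), and its reads may come from near-identical Mup genes. Car3, carbonic anhydrase of fat and of male rodent liver, had 2736, 2501, 2386 and 2100.3 CPM after 4 h and 34.5, 38.6, 1110.4 and 537 CPM after 24 h (log2 -2.50 ± 0.61, adjusted p = 0.00398, or 0.115 when only the 8 libraries were fitted; -3.58 without the 24 h replicate 3). Cela1, an elastase known from pancreas, had 55.4, 43.0, 55.4 and 56.6 CPM after 4 h and 16.1, 13.7, 16.7 and 16.1 CPM after 24 h (log2 -1.75 ± 0.28, adjusted p = 5.39e-05). In all of them every 24 h liver was below every 4 h liver, which the naming rule required of Chrna4, Hcn3 and Mup-ps20.

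The fasting response differed on KD. In WT mice on that diet 1576 genes passed (10.9%), and the CD and KD contrasts share no library. The fasting change differed between the diets for 1856 genes (12.9%), 759 with a higher change on CD (5.26%) and 1097 with a lower change on CD (7.6%). Of the genes that passed on CD, 481 passed on KD too, 331 in the same direction and 150 in the opposite one. The genes with the same direction are 12.4% of the CD genes and 21.0% of the KD genes. The difference itself passed for 24 of 25 cholesterol genes, whose median log2 change was -1.64 on CD and 0.99 on KD, and for 15 of 19 folding genes, with medians of -0.80 and 0.76. Insig1 changed by 0.96 on KD (difference adjusted p = 5.7e-05), Abcb11 by 0.93 (2.6e-06) and Alas1 by -1.09 (4.51e-06), each opposite in sign to CD. For Insig1 and Abcb11 every KD 4 h liver was already below every CD 4 h liver, with KD means of 117.9 and 177.5 CPM. The KD 24 h means were 228.7 and 339 CPM. The part of these starting levels in the differences was not tested. The smallest p-values of this difference included Osbpl3, an oxysterol-binding protein, with 2.99 ± 0.43 on CD (2.23 without the 24 h replicate 1) and -2.77 on KD (adjusted p = 6.95e-07), and Nampt, the rate-limiting enzyme of NAD salvage, with 0.92 ± 0.15 and -1.06 (adjusted p = 9.81e-07). Fgf21 rose by 2.41 ± 0.44 on CD and 2.76 on KD, and the difference did not pass (adjusted p = 0.764).

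In KO livers on CD, 2703 genes passed for the same fast (18.7%). The change differed from WT for 88 genes (0.61%), 71 of them with a higher change in WT (0.492%) and 17 with a lower one (0.118%). That count was 44 without the WT 4 h replicate 3, 52 to 57 without the KO 4 h replicate 1 or 2 or the KO 24 h replicate 3, 194 with DESeq2, and 810 without the 4 libraries of the series that hold muscle transcripts. Those 4 are the WT 24 h replicate 1 and the KO 24 h replicates 1 and 2, all on CD, and a KO 4 h liver on KD. The median log2 change of the muscle markers was 8.04 in WT and 7.97 in KO on CD. The WT median was 6.29 when markers at 0 in all 4 h livers were set to 3 reads per library. Without the WT 24 h replicate 1 it was 0.57. The part of muscle RNA in the calls that the genotypes share was not tested. Genes that passed in both genotypes numbered 1223, and 1219 of them had the same direction, 45.7% of the WT genes and 45.1% of the KO genes. The difference passed for 11 of 25 PPARα targets, whose median was 1.72 in WT and 0.11 in KO, and for 0 lipogenic and 0 cholesterol genes, with KO medians of -1.73 and -1.92. At an unadjusted p under 0.05 these counts were 6 and 0 by edgeR, and DESeq2 called 2 and 0. Cyp4a14 rose by 7.94 ± 0.57 in WT and 1.52 in KO (difference adjusted p = 1.06e-06), and Ehhadh by 3.50 ± 0.38 in WT, with 0.11 in KO (adjusted p = 0.00104). For both genes every KO 4 h liver was already above every WT 4 h liver. The KO means were 2749 CPM after 4 h and 7882 CPM after 24 h for Cyp4a14, and 1145 and 1232 CPM for Ehhadh. The part of these starting levels in the differences was not tested. Angptl8 had -1.77 ± 0.38 in WT and had a log2 change of 0.96 in KO (adjusted p = 0.00939, or 0.0605 when only the 4 groups compared were fitted). Fasn had -4.25 ± 0.58 and -4.52 (adjusted p = 0.925).

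**Figure D4:**
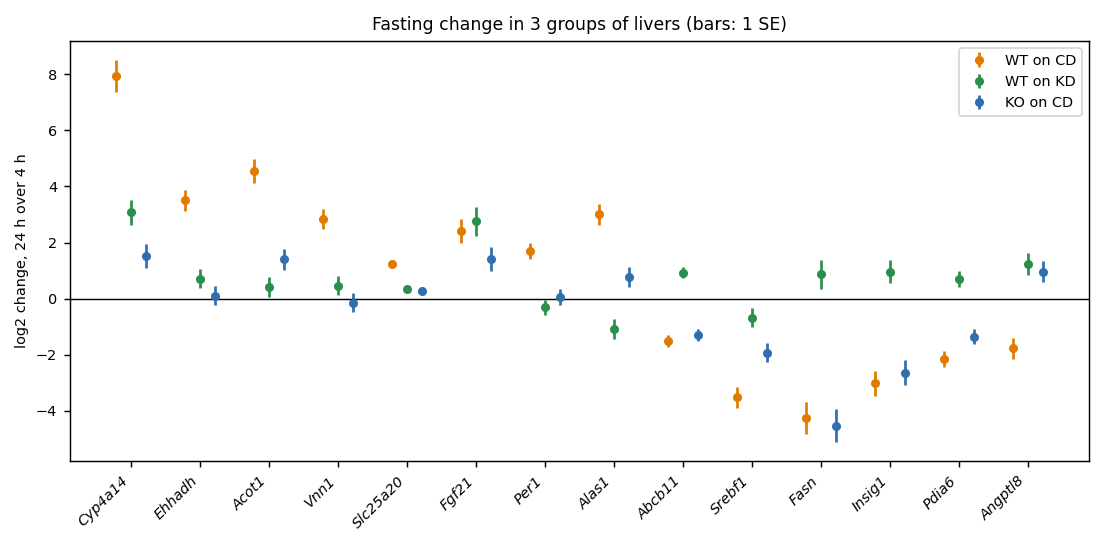
Log2 change from the 4 h to the 24 h fast in WT livers on CD (orange), WT livers on KD (green) and KO livers on CD (blue) for 14 genes; points are fitted changes and bars are 1 SE either way. Cyp4a14 stands at 7.94 in WT on CD, 3.08 on KD and 1.52 in KO, while Insig1 stands at -3.01 in WT on CD, 0.96 on KD and -2.63 in KO.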

How the data were processed

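Polyadenylated RNA from liver was sequenced as paired-end TruSeq libraries, per the labels' protocols. The submitters' processing notes name TopHat2 2.0.12 with Bowtie2 2.2.3, HTSeq 0.6.1 and build GRCm38. For the annotation release and the strand setting nothing is given in the sources used here, and overlapping and antisense genes cannot be separated. The authors' deposited table holds raw read counts of 35275 genes in 32 libraries, which were tested, and FPKM values deposited beside them, which were used only to check the table: 100.0% of them lay within 0.1% of count over gene length and library total. All levels in the text are CPM computed here from the counts with TMM-normalized library sizes, and no levels of different genes are compared.

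Counts were fitted with edgeR 4.0.16 (R 4.3.3), TMM normalization and filterByExpr, with 8 group means over all 32 libraries (24 residual degrees of freedom, 14438 genes tested), and the quasi-likelihood test was adjusted by the Benjamini-Hochberg method. The SE of a log2 change was derived from the test statistic and restates it. Groups came from the labels, and each group has 4 animals numbered in accession order. The biological coefficient of variation was 0.235. Replicates differed by more than counting noise in all 12 pairs (chi-square per degree of freedom 11.31 to 177.25), so none was counted as a duplicate. A count of 3 reads corresponds to 0.112 to 0.222 CPM, which covers counting error only. DESeq2 1.42.0, other size factors, no filter, fewer libraries and each library left out were tried as alternatives. The code was tested on simulated data.

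Genes, lists and the naming rule were chosen with earlier results of these data known: up to 5 passing and 2 non-passing genes of each list, and those with the largest changes or smallest p-values. Acly, Cpt1a, G6pc and Pnpla2 fall outside the rule and were chosen after their values were seen, and not every gene the rule names is reported here.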

Additional observations from a re-analysis of the deposited data

Results flagged for a closer look

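Among the 75 genes described, each of the 150 groups of 4 livers was examined for a liver that stands apart (Dixon's criterion for 4 values), which chance gives in about 1 of 20 groups; 9 livers met it. After 4 h these were Asns in replicate 1 (0.38 CPM), Cela1 in replicate 2 (43 CPM), Fgf21 in replicate 2 (9.72 CPM), and Fkbp5 and Mt1 in replicate 4 (38 and 20.5 CPM). After 24 h they were Gbe1 (36.8 CPM), Khk (137 CPM) and Osbpl3 (16.4 CPM) in replicate 1, the liver with muscle transcripts, and Igf1 in replicate 2 (1023 CPM). Asns and Cela1 were low in their group, Gbe1 and Khk were low, and the others were high.

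Of the 10 single-gene differences of the fasting change described, 8 passed the test. Between the diets, CD minus KD, the log2 difference was -3.97 for Insig1, -2.45 for Abcb11, 4.10 for Alas1, 5.77 for Osbpl3 and 1.98 for Nampt (4.98 for Osbpl3 without the WT CD 24 h replicate 1). Between the genotypes on CD, WT minus KO, it was 6.42 for Cyp4a14, 3.39 for Ehhadh and -2.72 for Angptl8. It was 7.06 for Cyp4a14 without the WT 4 h replicate 1, and 7.20 for Cyp4a14 and 4.2 for Ehhadh without the 4 libraries with muscle transcripts.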

How the results depend on the processing

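No paired analysis was possible because replicate numbers follow accession order and the labels give no number that links animals across groups. The number of genes changed by the fast was 1552 when only the 8 libraries were fitted, the only alternative to move it by more than 1.5 times; DESeq2 gave 2988, DESeq2 size factors 2691, no filter 2252 and the fit without the 4 libraries with muscle transcripts 1962, and single livers left out gave 1831 to 3165. The number whose change differs between KD and CD was 1272 to 2211 under these settings and 1349 to 2344 with single livers left out, against 1856. The number that differs between KO and WT was least stable, with 194 under DESeq2, 29 from the groups compared alone, 810 without the muscle libraries and 44 to 124 with single livers left out, against 88; the cause was not tested. The difference in mitochondrial share was 0.603 to 3.08 percentage points with single livers left out (exact p = 0.114 to 0.686) and 0.929 without the 10 genes with the most counts (exact p = 0.229). Of 975 refitted fasting changes of the 75 genes, 962 kept their direction and side of the threshold, and of 210 refitted differences of 10 genes 207 did. Many of these genes were named for passing, some for passing also without the 24 h replicate 1, so these counts favour stable genes. Of all 2670 genes that passed for the fast, 1418 passed in every fit that left out 1 of the 8 libraries. Near 0, signs turned: Bdh1 ran from -0.35 to 0.21 with single livers left out (0.19 without the muscle libraries) and G6pc from -0.32 to 0.26. The difference ran from -0.67 to 0.18 for Fgf21 (CD minus KD) and from -0.60 to 0.63 for Fasn (WT minus KO; 0.94 without the muscle libraries). Depth limits genes within a few reads of 0, such as Chrna4, Pnpla5 and Sult1e1.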

Other observations

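Within the 24 h group, replicates 1 and 2 lay above replicates 3 and 4 in several genes of different lists, with 859 and 634 against 219 and 202 CPM for Igfbp1 and 316 and 334 against 91.1 and 88.9 CPM for Cyp17a1. Sult1e1 had 60.5 and 48.8 against 1.63 and 2.52 CPM, Cdkn1a 129 and 91.1 against 25.4 and 18.2 CPM, and Lepr 97.7 and 152 against 11.7 and 10.1 CPM. Only replicate 1 of that pair holds muscle transcripts. Within the 4 h group, replicates 1 and 2 lay above 3 and 4 in Fasn (1275 and 1126 against 395 and 283 CPM), Acly (632 and 701 against 279 and 235 CPM) and G6pc (819 and 684 against 246 and 230.4 CPM). These genes were picked after their values were seen and no test was made. The 24 h pairs carry sample titles from separate number ranges, whose meaning the labels do not give.

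Gpnmb, a glycoprotein of macrophages, had 0.0633, 0.242, 0.278 and 0 CPM after 4 h and 36.7, 1.11, 0.748 and 15.8 CPM after 24 h (log2 6.46 ± 1.03, adjusted p = 4.32e-05 by edgeR; 5.24 without the 24 h replicate 1). Its 4 h livers were within a few reads of 0, so the size of the change is uncertain. The filter limit given for the female-biased genes may apply to Gpnmb too. The 2 livers with the most Gpnmb after 24 h, replicates 1 and 4, had the highest sums of Kupffer cell markers, at 1285 and 686 CPM, against 343 and 360.1 CPM in replicates 2 and 3. The part of these cells in the change was not tested.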
